A study of Mus musculus with 2 samples.

Results

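Malat1, its opposite-strand neighbour Gm37376 and 5 genes for nuclear speckle proteins (Son, Srrm2, Srrm1, Acin1 and Pnn) were followed by symbol in nuclear RNA of mouse macrophages. All 7 were found, of 55536 genes in the tables. The RNA came from the nuclear fraction of bone-marrow-derived macrophages, primary cells of strain C57BL/6J. They received Lipid A, the part of lipopolysaccharide that the receptor TLR4 recognises, at 100 ng/ml for 12 h. After 12 h without it they received 100 ng/ml again for 120 min. This single group had 2 libraries of total RNA depleted of ribosomal RNA, replicate 1 from 1 µg and replicate 2 from 500 ng of RNA. The labels call them biological replicates and give both the same donor entry, so the spread between them may be technical. Sex and age were not collected, and of the fraction 2 names are given, nucleus and nucleoplasmic. Without an untreated group the values describe what the nuclei held, not a response to Lipid A.

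Nuclear speckles are bodies in the nucleus that hold pre-mRNA splicing factors and lie beside active genes. The large serine- and arginine-rich proteins encoded by Son and Srrm2 form their scaffold, and Malat1, a long non-coding RNA that stays in the nucleus, gathers in them. Srrm1 encodes a splicing coactivator of the same serine- and arginine-rich kind. The products of Acin1 and Pnn join the complexes ASAP and PSAP, which bind the exon junction complex that splicing leaves on RNA.

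Replicate 1 held 28450309 and replicate 2 held 16940220 expected counts on genes (estimated read counts that need not be whole). All 8 macrophage markers were above 1 in both libraries in TPM, the level of an RNA corrected for its length and scaled to a fixed sum. Their means ran from 40.7 to 1265 TPM, and all 14 markers of other cell types were below TPM 1 in both in the gene table. The second transcript table had 11 of the 14 below TPM 1 in both, and put Pecam1 at 1.45 TPM in replicate 1 and 14.4 TPM in replicate 2, Cd3d at 1.00 TPM in replicate 1 and 5.57 TPM in replicate 2, and Zbtb46 at 0.39 TPM in replicate 1 and 1.05 TPM in replicate 2. In scaled counts the 8 macrophage markers had a median log2 ratio of 0.72, higher in replicate 1, and their part in the differences below was not tested. Genes of the mitochondrial genome took 4.15% of counts in replicate 1 and 10.3% in replicate 2. Short structural RNAs took 72.9% of TPM in replicate 1 and 53.9% in replicate 2, which lowers every other TPM in replicate 1. The common biological coefficient of variation between the libraries was 0.335 over 14698 genes (edgeR), a standard deviation of 0.68 for a log2 ratio. Replicate and input amount cannot be told apart.

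Malat1 (ENSMUSG00000092341.3, chr19:5795690-5802672 on the minus strand, mm10) has 4 annotated transcripts. Malat1-201 is the unspliced RNA of 6983 bases. Malat1-203, of 485 bases, joins bases 2 to 435 of Malat1-201 to bases 707 to 757 and so lacks an intron of 271 bases. Malat1-204, of 656 bases, and Malat1-202, of 556 bases, come from the other end of the RNA. Gm37376 (ENSMUSG00000102349.1, chr19:5801941-5802393 on the plus strand) is a model of 453 bases of the type TEC, which marks loci with little evidence. All 453 of its bases lie opposite Malat1-201, from base 280 to base 732 of that transcript.

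**Figure D1:**
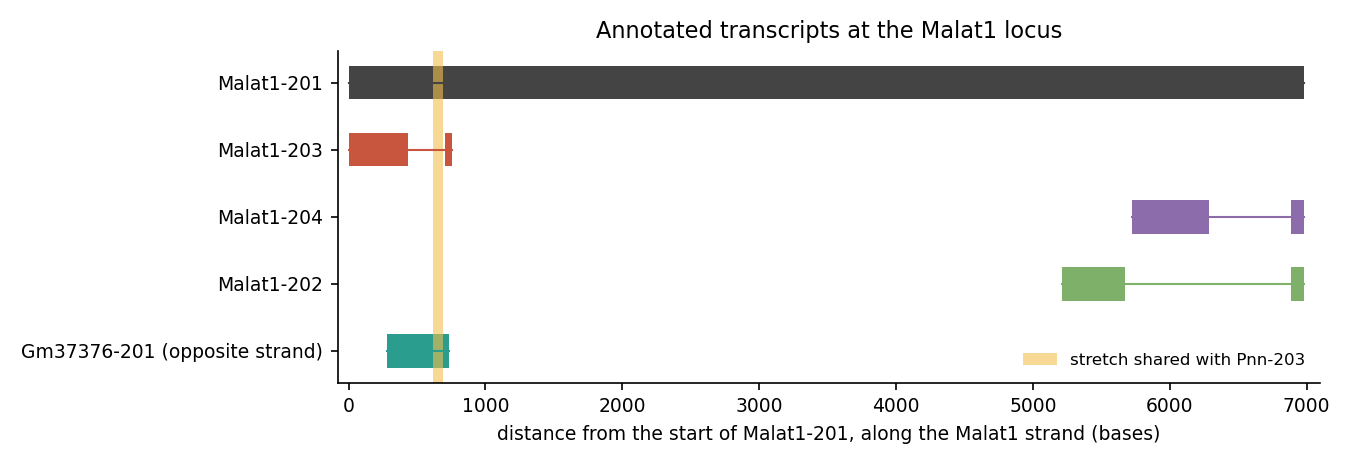
Annotated transcripts at the Malat1 locus, drawn by distance in bases from the start of Malat1-201 along the Malat1 strand, with exons as boxes and introns as lines. Malat1-203 and Gm37376 lie in the first 757 bases, and the yellow band marks a stretch of 74 bases, from base 618 to base 691, that is also found in Pnn-203.

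The spliced Malat1 transcripts can be told from Malat1-201 only at their junctions, so those are printed here from GENCODE M21 (mm10, minus strand), 5′ to 3′, with the bases after the junction in capitals. The introns removed are chr19:5801967-5802237 for Malat1-203, chr19:5795786-5796388 for Malat1-204 and chr19:5795786-5797003 for Malat1-202.
Malat1-203 junction: tagtttgaaaatgagGTTAGGCTAGTATTT
Malat1-204 junction: catatcggtttcaagGTTATGCCCAATTCG
Malat1-202 junction: aaatgaggacaacagGTTATGCCCAATTCG

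In Malat1-201 the same places are uninterrupted, and each intron starts with GT and ends with AG, in capitals below. Malat1-204 and Malat1-202 share the end of their introns.
Malat1-203 intron start: tagtttgaaaatgagGTgtagttttaaaag
Malat1-203 intron end: tgaaaaaacaaaaAGgttaggctagtattt
Malat1-204 and Malat1-202 intron end: tgcattgtctttcAGgttatgcccaattcg

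Of the 31-base words of Malat1-203, 26 of 455 occur in no other transcript of the 7 genes on either strand, all of them across its junction. For Malat1-204 the number is 26 of 626 and for Malat1-202 25 of 526. Gm37376 has none of its own among 423 words, because every one is the reverse complement of a word of Malat1-201. Its first 30 bases (chr19:5801941-5801970, plus strand) and the same place on the Malat1 strand show this.
Gm37376: cttctttctccaaatactagcctaaccttt
Malat1: aaaggttaggctagtatttggagaaagaag

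Malat1 was the gene with the most counts in both libraries. Its expected counts were 2353028 in replicate 1 and 1704012 in replicate 2. Its level was 10410.3 TPM in replicate 1 and 24099.9 TPM in replicate 2, a mean of 17255 ± 9680.0 TPM (SD, n = 2), rank 8 of all genes and rank 1 of 10155 long non-coding genes. The 2 libraries thus differed 2.31-fold in deposited TPM, with replicate 2 higher. A level in such nuclear extracts cannot tell the number of cells holding Malat1 from the amount of Malat1 RNA per cell.

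Scaled counts differed far less. After TMM scaling Malat1 reached 87545 CPM (counts scaled to a common total) in replicate 1 and 95031 CPM in replicate 2, a log2 ratio (replicate 1 over replicate 2, here and below) of -0.12 (95% exact interval -0.121 to -0.116, counting error only). With the second transcript table that ratio turned to 0.14. The gene's effective length, by which TPM divides, was 4581 bases in replicate 1 and 3369 in replicate 2. With all of Malat1's counts placed on the effective length of Malat1-201, an alternative chosen after seeing the data, the level was 7068 TPM in replicate 1 and 12002 TPM in replicate 2, and the fold between the libraries was 1.70.

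Nearly all Malat1 counts lay on the unspliced Malat1-201, while its share of TPM was much smaller. Malat1-201 took 97.7% of the gene's counts in replicate 1 and 95.8% in replicate 2. Of the gene's TPM it took 66.4% in replicate 1 and 47.7% in replicate 2, at 6909 TPM in replicate 1 and 11492 TPM in replicate 2. TPM divides counts by effective length, so a short transcript reaches a high TPM with few reads.

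Malat1-203 took 1.21% of counts in replicate 1 and 3.81% in replicate 2. That came to 2309 TPM, or 22.2% of the gene's TPM, in replicate 1 and to 11563 TPM, or 48.0%, in replicate 2. In the second transcript table Malat1-203 took more in both libraries, 50.6% of TPM in replicate 1 and 55.9% in replicate 2. The share differed 2.16-fold between the libraries in the first table and 1.10-fold in the second.

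Of the spliced transcripts of the far end, each library held mainly 1, and not the same. Malat1-204 had 24683 counts and 1192 TPM in replicate 1 and was listed at 0 in replicate 2. Malat1-202 had 5.32 counts and 0.34 TPM in replicate 1, against 7430 counts and 1046 TPM in replicate 2. The second table had the same pattern, with Malat1-204 at 226 TPM in replicate 1 and 2.57 TPM in replicate 2 and Malat1-202 at 0.000104 TPM in replicate 1 and 1035 TPM in replicate 2. These transcripts differ in their first exon and share the intron end printed above. Whether reads across each junction set these values was not tested.

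**Figure D2:**
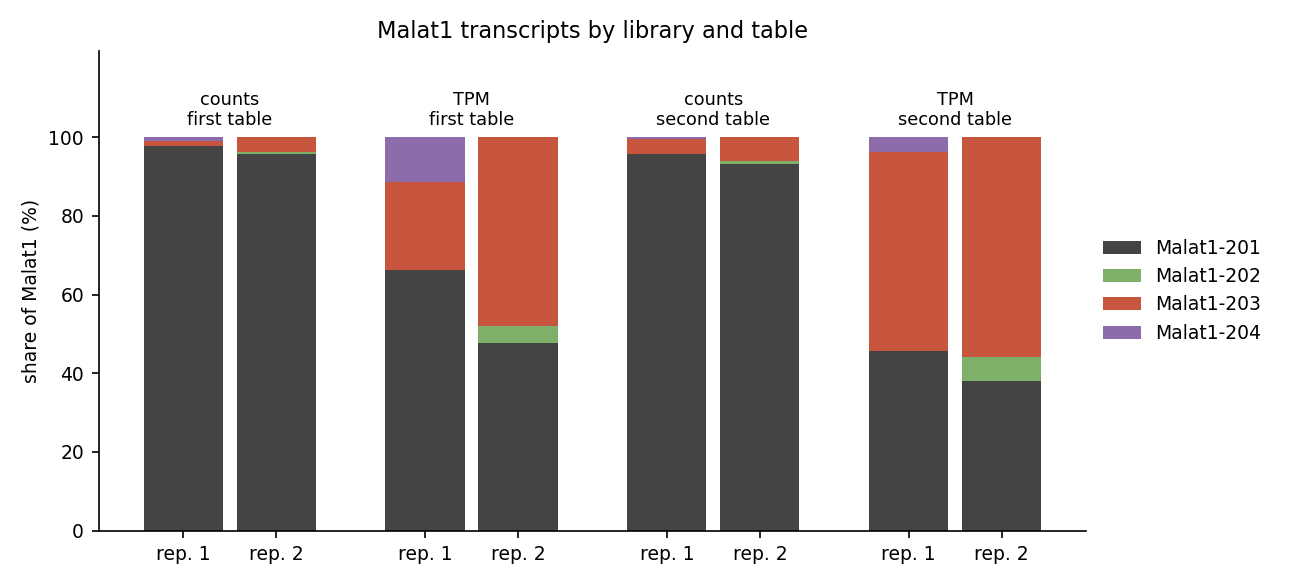
Share of Malat1 counts and of Malat1 TPM (in percent) on each of its 4 transcripts, for replicate 1 and replicate 2 in the first and the second transcript table. Malat1-201 holds 93.1% or more of the counts in every bar of counts, while Malat1-203 ranges from 22.2% to 55.9% of the TPM.

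The level of Gm37376 depended on the table. The first table listed it at 0 counts and 0 TPM in replicate 1 and at 1596 counts and 322 TPM in replicate 2. With replicate 1 set to a floor of 3 counts, it was 797-fold lower there after TMM scaling, a figure that depends on that floor. The 95% exact interval of its log2 ratio, which covers counting error only, reached up to -9.34. The deposited posterior mean TPM was 1.14 in replicate 1 and 304 in replicate 2, which is 267-fold. The second table gave 25418 counts and 1009 TPM in replicate 1 and 33072 counts and 2336 TPM in replicate 2. There Gm37376 took 1.05% of the counts of the Malat1 and Gm37376 pair in replicate 1 and 1.33% in replicate 2. In the first table it took 0% of them in replicate 1, where the floor of 3 counts would be 0.000127%. In replicate 2 it took 0.0936% (95% Wilson interval 0.0891 to 0.0983). The strand setting of the counting was not given in the sources used here, and without strand Gm37376 and Malat1 cannot be told apart.

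A stretch of 74 bases of Gm37376 (chr19:5801982-5802055, plus strand) is repeated exactly in the retained-intron transcript Pnn-203, at chr12:59069519-59069592 inside intron 6 of Pnn. It is shown because it ties 3 of the 7 genes together by sequence.
Gm37376 and Pnn-203: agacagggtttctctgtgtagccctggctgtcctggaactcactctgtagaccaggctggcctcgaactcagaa
The same bases lie reversed in Malat1-201, in the part that Malat1-203 splices out. The sequence is of the B1 kind, a short interspersed repeat of the mouse genome, and 33 annotated genes hold this exact stretch on the same strand and 58 on either strand. How the authors' counting divided reads from such repeats was not tested.

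Among the scaffold proteins, Son had the higher level in the gene table. Son (ENSMUSG00000022961.18, chr16:91647506-91679221, plus strand) had 114 TPM in replicate 1 and 193 TPM in replicate 2, a mean of 153 ± 55.6 TPM (SD, n = 2) and rank 158 of 22015 protein-coding genes. Srrm2 (ENSMUSG00000039218.17, chr17:23790532-23824741, plus strand) had 87.0 TPM in replicate 1 and 109 TPM in replicate 2, a mean of 97.9 ± 15.3 TPM and rank 294. In that table the lower Son value lay above the higher Srrm2 value. In the second table the ranges overlapped, with Son at 48.4 TPM in replicate 1 and 114 TPM in replicate 2 and Srrm2 at 57.5 TPM in replicate 1 and 84.4 TPM in replicate 2, so Srrm2 was the higher in replicate 1.

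Srrm1 (ENSMUSG00000028809.16, chr4:135320484-135353321, minus strand), the coactivator, was less abundant, at 34.7 TPM in replicate 1 and 55.1 TPM in replicate 2 (44.9 ± 14.4, rank 782). Acin1 (ENSMUSG00000022185.19, chr14:54642161-54686931, minus strand) had 47.7 TPM in replicate 1 and 89.1 TPM in replicate 2 (68.4 ± 29.2, rank 465). Pnn (ENSMUSG00000020994.5, chr12:59066884-59073998, plus strand) was the lowest, at 18.8 TPM in replicate 1 and 42.2 TPM in replicate 2 (30.5 ± 16.5, rank 1272). All 5 stood above the median of the 8713 protein-coding genes with TPM of 1 or more in both libraries, 6.52 TPM in replicate 1 and 9.52 TPM in replicate 2.

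By mean TPM the order was Malat1, Gm37376, Son, Srrm2, Acin1, Srrm1 and Pnn. The library ranges of Malat1 and Gm37376 did not overlap, nor did those of Son and Srrm2. The ranges of the neighbours Gm37376 and Son, Srrm2 and Acin1, Acin1 and Srrm1, and Srrm1 and Pnn overlapped. Apart from Gm37376, which was listed at 0 in replicate 1, each library on its own gave this order in the gene table, while in replicate 1 of the second table Srrm2 stood above Son. With short RNAs and mitochondrial genes left out of the gene table's TPM, the ranges of Srrm2, Acin1, Srrm1 and Pnn did not overlap. Srrm2 then had 364 TPM in replicate 1 and 338 TPM in replicate 2, and Acin1 199 TPM and 277 TPM. Srrm1 had 145 TPM in replicate 1 and 171 TPM in replicate 2, and Pnn 78.4 TPM and 131 TPM. The ranges of Gm37376 and Son still overlapped.

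**Figure D3:**
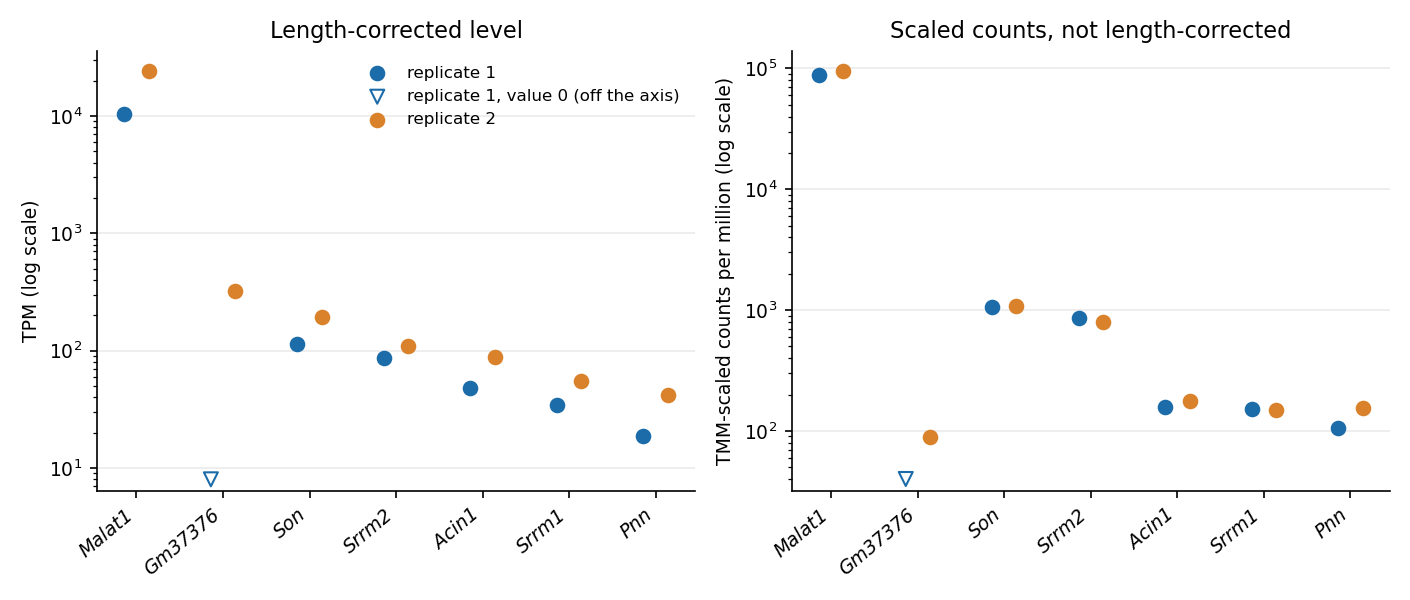
Levels of the 7 genes in replicate 1 and replicate 2, as deposited TPM (left) and as TMM-scaled CPM (right), both on log axes. In TPM every replicate 2 point is above its replicate 1 point, while in scaled counts the points nearly meet for all but Gm37376 and Pnn, and the open triangle marks the 0 of Gm37376 in replicate 1.

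All 7 genes had the higher deposited TPM in replicate 2. For all but Gm37376 most of that gap was absent from scaled counts, though for Pnn the log2 ratio went only from -1.17 to -0.54. Gm37376 stayed at 0 CPM in replicate 1 against 89.0 CPM in replicate 2. Over all 14698 genes tested, the log2 ratio had a median of -0.43 in TPM (with 1 added) and of 0.00 in TMM-scaled counts. With short RNAs and mitochondrial genes left out of TPM, which put the median over all tested genes at -0.19, 6 of 7 were still higher in replicate 2, and Srrm2 was the exception at 364 TPM in replicate 1 and 338 TPM in replicate 2. In scaled counts Son reached 1054 CPM in replicate 1 and 1075 CPM in replicate 2. Srrm2 reached 860.3 CPM in replicate 1 and 802 CPM in replicate 2, and Srrm1 150.5 CPM in replicate 1 and 150.1 CPM in replicate 2. Acin1 reached 158 CPM in replicate 1 and 177 CPM in replicate 2, and Pnn 106 CPM in replicate 1 and 154 CPM in replicate 2. The largest of these gaps was that of Pnn, at 1.45-fold, and the next that of Acin1, at 1.12-fold. With the second table's counts the largest among these 5 genes was that of Srrm2, at a log2 ratio of 0.41, against -0.23 for Pnn.

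An exact two-sided binomial test with Benjamini-Hochberg adjustment asked which genes differed between these libraries beyond counting error, at an adjusted p under 0.05. It compares the libraries and not conditions. Of the 7 genes, 1 was higher in replicate 1, where 30.2% of all 14698 tested genes were called. In the other direction 5 of the 7 were called, against 29.7% of all tested genes. With total counts in place of TMM, 0 members were called higher in replicate 1 (22.1% of all genes) and 7 higher in replicate 2 (39.2%). With counts of the second table, 5 members were called higher in replicate 1 (30.9% of the 23709 genes tested there) and 2 higher in replicate 2 (32.1%). The median log2 ratio of the 7 was -0.12. The member called higher in replicate 1 was Srrm2 (log2 ratio 0.10, adjusted p of the exact test 1.7e-10), but with total counts its ratio was -0.06.

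Pnn and Gm37376 were lower in replicate 1 under every scaling and in both tables, but by much less in the second table, where their log2 ratios were -0.23 and -0.21. Pnn had a log2 ratio of -0.54 (95% exact interval -0.61 to -0.46, adjusted p of the exact test 1.0e-42), which is 1.45-fold and lies inside the standard deviation of 0.68 between these libraries. Malat1, Acin1 and Son were also called lower in replicate 1, with ratios of -0.12, -0.16 and -0.03, but the second table turned all 3 round, to 0.14, 0.13 and 0.25. The adjusted p of the exact test was 5.5e-06 for Acin1 and 0.0495 for Son, and Son was not called with DESeq2's size factors (adjusted p of the exact test 0.134) or without a filter on low counts. Srrm1 did not pass (log2 ratio 0.00, adjusted p of the exact test 0.947, interval -0.07 to 0.07), but in the second table it had a ratio of 0.33 and was called.

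**Figure D4:**
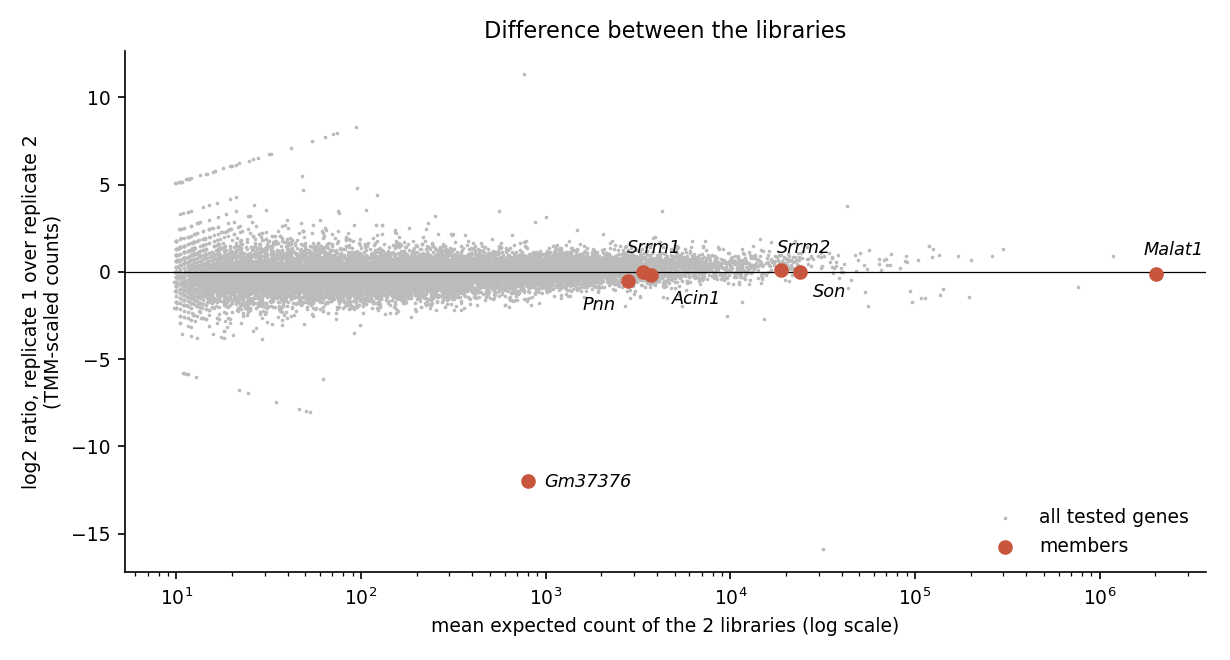
Log2 ratio of TMM-scaled counts, replicate 1 over replicate 2, against the mean expected count (log axis) for all 14698 tested genes in grey and the 7 genes in red. All but Gm37376 lie between -0.54 and 0.10, and the place of Gm37376 depends on the prior count of 0.5 because it had 0 counts in replicate 1.

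The ratio ran with base composition over all genes. In 10 bins of GC content of the longest transcript, the median log2 ratio was -0.66 in the lowest bin and 0.50 in the highest. Pnn, at 43.4% GC, had a ratio of -0.54 where its bin had a median of -0.24. Malat1, at 42.5% GC, had -0.12 against -0.35 for its bin, and Acin1, at 54.4% GC, had -0.16 against 0.25. For Son, Srrm2 and Srrm1, with ratios of -0.03, 0.10 and 0.00, the bins' medians were -0.06, 0.18 and -0.11. The part of base composition in these differences was not tested.

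Transcripts annotated as retaining an intron took shares of TPM that differed widely among the protein-coding members. The share of the gene's TPM on such transcripts was 42.5% in replicate 1 and 46.0% in replicate 2 for Srrm1, the highest of the 5. For Son it was 31.6% in replicate 1 and 41.0% in replicate 2. Acin1 had 33.0% in replicate 1 and 31.3% in replicate 2, and Srrm2 had 22.5% in replicate 1 and 13.8% in replicate 2. Pnn had the lowest share, 12.8% in replicate 1 and 10.4% in replicate 2.

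The median over the 5 was 31.6% in replicate 1 and 31.3% in replicate 2. Over all 6946 tested genes with such a transcript it was 23.6% in replicate 1 and 30.0% in replicate 2. Weighted by counts in place of TPM, the medians of the 5 were 9.99% in replicate 1 and 11.5% in replicate 2, below the medians of all such genes, 13.3% in replicate 1 and 18.1% in replicate 2. The annotated retained-intron transcripts of these genes are mostly short, so TPM gives them more weight than counts do. In the second table the medians of the 5 were 38.2% in replicate 1 and 36.6% in replicate 2, against 30.5% in replicate 1 and 35.8% in replicate 2 over all such genes.

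**Figure D5:**
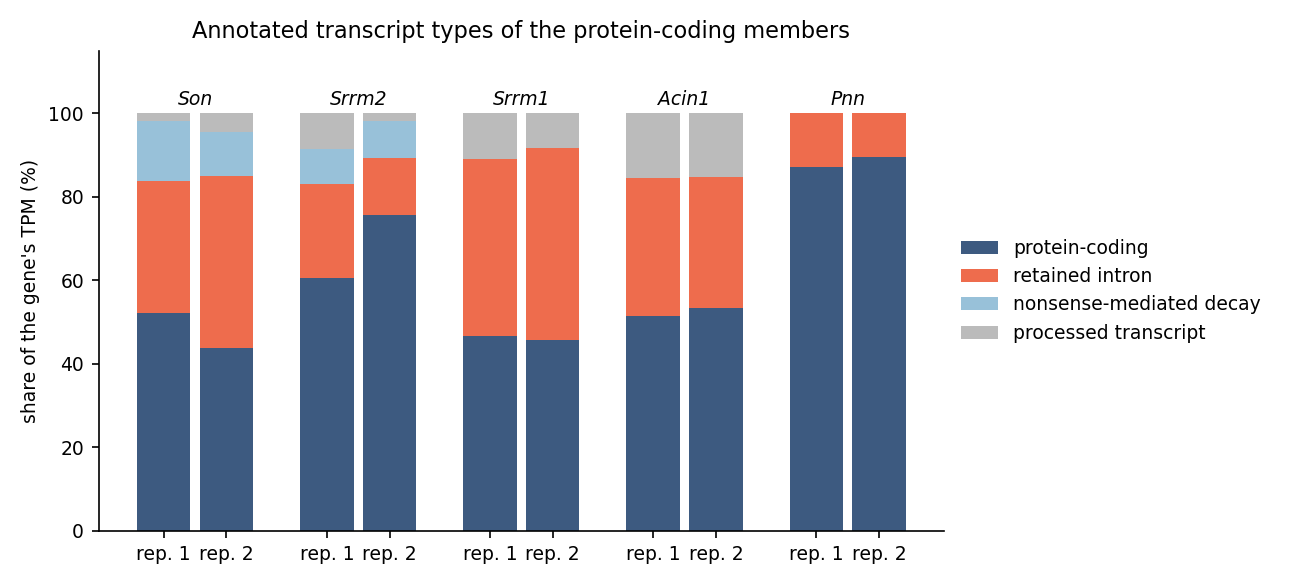
Share of each protein-coding member's TPM (in percent) on transcripts of each annotated type, in replicate 1 and replicate 2. Pnn is 87.2% coding or more in both libraries, while Srrm1 reaches at most 46.6% and the coding share of Srrm2 is 60.5% in replicate 1 and 75.6% in replicate 2.

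Few of these transcripts hold a whole intron of the gene's coding transcript with the most introns. Among retained-intron transcripts with 5% or more of a gene's TPM, only Srrm1-207 and Pnn-203 did so. Srrm1-207 took 17.6% of Srrm1 TPM in replicate 1 and 23.8% in replicate 2, and it keeps intron 3, of 2065 bases (chr4:135344670-135346734, minus strand). Pnn-203 took 8.31% of Pnn TPM in replicate 1 and 6.36% in replicate 2, and it keeps introns 6, 7 and 8, of 950, 81 and 908 bases. The ends of the longer ones are printed from GENCODE M21 (mm10) with the first or last 2 intron bases in capitals, since these are splice sites left unused in the transcripts.
Srrm1-207 intron 3 start: cagctggaagtgaagGTatgacatgcagat
Srrm1-207 intron 3 end: catgtctttttgcAGaacccagattccaaa
Pnn-203 intron 6 start: gttgctactgaacggGTattggtgcctttt
Pnn-203 intron 6 end: attacttacttttAGcaaaaaagacgccaa
Pnn-203 intron 8 start: agagaaagatgaatgGTacgtatgtgaagt
Pnn-203 intron 8 end: attttttttgtttAGctttatttgaaggta

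All of them begin with GT and end with AG. The 2 retained-intron transcripts of Son, Son-214 and Son-213, instead start or end inside intron 8 (chr16:91671466-91675400), of 3935 bases. The largest overlap of 1 exon with it is 2512 bases for Son-214 and 469 for Son-213. Son-214 also overlaps intron 11, by 53 of 449 bases. Son-214 took 15.7% of Son TPM in replicate 1 and 27.4% in replicate 2, and Son-213 took 15.9% in replicate 1 and 13.6% in replicate 2. Acin1-209, with 17.4% of Acin1 TPM in replicate 1 and 13.5% in replicate 2, and Srrm2-209, with 15.3% of Srrm2 TPM in replicate 1 and 6.30% in replicate 2, likewise hold only part of an intron. Total RNA of nuclei also holds pre-mRNA on its way through splicing, and unspliced and retained introns cannot be told apart in these tables.

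The leading coding transcripts differed in how steady they were. Pnn-201, the only coding transcript of Pnn, took 87.2% of its TPM in replicate 1 and 89.6% in replicate 2. Srrm2-210 led Srrm2 with 48.8% in replicate 1 and 51.4% in replicate 2, ahead of Srrm2-201 with 8.95% in replicate 1 and 19.9% in replicate 2. In the second table Srrm2-210 also led, but with 33.5% in replicate 1 and 38.2% in replicate 2. There Srrm2-201 had 3.41% in replicate 1, below the 15.2% of the retained-intron Srrm2-209, and 14.6% in replicate 2. In the first table Srrm1-203 led Srrm1 with 31.9% in replicate 1 and 24.0% in replicate 2, and Srrm1-202 had 13.0% in replicate 1 and 18.1% in replicate 2. In the second table Srrm1-203 had 16.8% in replicate 1 and 13.9% in replicate 2, and there Srrm1-202, with 10.4% in replicate 1 and 16.6% in replicate 2, was above it in replicate 2. Little of the sequence of Srrm2-210 and Srrm1-203 is their own. Of their words, 62 of 8834 and 113 of 3767 are found in no other transcript of the 7 genes.

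Son and Acin1 spread their RNA over many transcripts. Son-201, which ends after 5 exons where Son-203 has 12, was the highest coding transcript of Son, with 27.7% in replicate 1 and 22.6% in replicate 2, but in replicate 2 the retained-intron Son-214 was above it. Transcripts of Son marked for nonsense-mediated decay, the pathway that degrades RNAs with an early stop, took 14.3% in replicate 1 and 10.8% in replicate 2. Acin1-218 had the highest share of the 26 Acin1 transcripts in the first table, 17.9% in replicate 1 and 19.3% in replicate 2, although none of its 4353 words is its own. In the second table it had 12.2% in replicate 1, below the 13.2% of Acin1-209, and 13.9% in replicate 2, below Acin1-206. The short coding Acin1-206 took 6.42% in replicate 1 and 18.9% in replicate 2, and Acin1-208, again with no word of its own, took 11.2% in replicate 1 and was listed at 0 in replicate 2. The second table gave Acin1-206 10.4% in replicate 1 and 18.9% in replicate 2, and Acin1-208 2.57% in replicate 1 and 0 in replicate 2.

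Besides Gm37376, 5 tested genes overlap a member, all on the opposite strand. Donson shares 2414 bases with the end of Son and had 197 counts in replicate 1 and 126 in replicate 2. Elob shares 4 bases with Srrm2 and had 178 counts in replicate 1 and 94 in replicate 2. The pseudogene AC122821.1 inside Srrm2 had 19 counts in replicate 1 and 30 in replicate 2 in the first table. In the second table AC122821.1 had 80 counts in replicate 1 and 220 in replicate 2. 1700123O20Rik at the start of Acin1 had 231 counts in replicate 1 and 120.2 in replicate 2. The antisense gene 4930579G18Rik inside Acin1 had 16 counts in replicate 1 and 39 in replicate 2 in the first table, but 248 in replicate 1 and 343 in replicate 2 in the second. Each had far fewer counts than its member, and reads from the shared bases cannot be told from the member's without strand.

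The partners of Acin1 and Pnn in ASAP, PSAP and the exon junction complex were all detected. All 9 listed genes reached TPM 1 in each library, and their median was 4.96 TPM in replicate 1 and 7.26 TPM in replicate 2. Rnps1, shared by ASAP and PSAP, had 14.4 TPM in replicate 1 and 26.9 TPM in replicate 2, and Sap18, the other shared subunit, had 2.79 TPM in replicate 1 and 6.61 TPM in replicate 2. Both were called lower in replicate 1 (log2 ratios -0.31 and -0.66), although in the second table Rnps1 was not called, with a ratio of -0.01. Upf3b, which links the junction complex to decay, was called lower in replicate 1 as well (-0.85).

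Among the core subunits, Eif4a3, the helicase that clamps the RNA, had 12.6 TPM in replicate 1 and 14.2 TPM in replicate 2, and Magoh had 5.07 TPM in replicate 1 and 4.12 TPM in replicate 2. Both were called higher in replicate 1 (log2 ratios 0.93 and 0.88). Rbm8a, the partner of Magoh, its paralog Magohb, the core subunit Casc3 and the export adaptor Alyref did not pass the test, with log2 ratios from -0.03 to 0.14. In all 2 of the 9 were called higher in replicate 1 and 3 lower, where 30.2% and 29.7% of all tested genes were called in these directions. With the second table's counts 4 were called higher and 2 lower, where the shares of all genes were 30.9% and 32.1%. Casc3 (0.30) and Alyref (0.49) were among those 4.

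A wider list of 40 genes for speckle and SR-related proteins was nearly all expressed. In both libraries 39 had TPM of 1 or more, and the kinase Dyrk3, known to dissolve speckles, was at 0.03 TPM in replicate 1 and 0.10 TPM in replicate 2. The list's median was 21.7 TPM in replicate 1 and 37.1 TPM in replicate 2, while the median over all protein-coding genes was 0.18 TPM in replicate 1 and 0.29 TPM in replicate 2. Over the 8713 protein-coding genes with TPM of 1 or more in both libraries it was 6.52 TPM in replicate 1 and 9.52 TPM in replicate 2. The splicing regulators Rbm39 (185 ± 59.5 TPM), Srsf5 (169 ± 23.7 TPM) and Srsf11 (111 ± 63.0 TPM) and the cyclophilin Nktr (106 ± 39.2 TPM) were the highest. After Dyrk3 the lowest were the U2 snRNP genes Sf3a1 (4.23 ± 1.29 TPM) and Snrpa1 (5.27 ± 2.80 TPM). Set among these 40, Son had 2 genes above it, Srrm2 6, Acin1 7, Srrm1 13 and Pnn 19.

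Of the 39 listed genes that were tested, 5 were called higher in replicate 1 (30.2% of all tested genes), 20 lower (29.7%) and 14 neither, with a median log2 ratio of -0.11 against 0.00 over all tested genes. This lean turned round in the second table, where 22 were called higher in replicate 1 (30.9% of all genes there) and 10 lower (32.1%) and the median was 0.15, against -0.06 over all genes there. The U5 snRNP core gene Prpf8 (0.75), Sart1 (0.64) and the poly(A)-binding Pabpn1 (0.56) had the highest ratios. Ddx46 (-0.68), Rbm25 (-0.64) and Srsf10 (-0.62) had the lowest, below the -0.54 of Pnn. All 6 of these listed genes kept their direction in the second table and with total counts. The median retained-intron share over the 33 listed genes with such a transcript was 43.2% of TPM in replicate 1 and 50.8% in replicate 2. The 5 coding members, as given above, had medians of 31.6% in replicate 1 and 31.3% in replicate 2.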

How the data were processed

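Per the file headers, the deposited tables were made on mm10 with GENCODE M21, 1 set per library, not pooled. The authors' gene table and first transcript table hold expected counts, TPM, posterior mean TPM and credibility bounds (named a signal here, since bounds have no fixed sum), and the transcript table a percent of the gene's TPM per transcript. The deposited second transcript table holds estimated counts and TPM. The aligner, the tools and the strand setting are not stated in the sources used.

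The genes and lists were chosen with earlier results of these data known. Named were all 7 genes, tested genes overlapping them, all 9 partners, the extremes of the speckle list, and transcripts with 5% or more of a gene's TPM, at most 5 per gene. Shares are of TPM or counts. Counts were rounded and scaled by TMM (edgeR 4.0.16, R 4.3.3), and 14698 genes reached a mean count of 10. They were compared with an exact two-sided binomial test (scipy 1.17.1), Benjamini-Hochberg adjusted, threshold 0.05, prior count 0.5, after a check on simulated data. The simulated counts held counting error only, so the check does not cover the wider spread between these libraries. DESeq2 1.42.0 gave alternative size factors. Intervals at 95% and the floor of 3 counts (0.105 CPM in replicate 1, 0.177 CPM in replicate 2) cover counting error only, as PCR copies were not marked. Rows of spike-ins, phiX174 and predicted tRNAs were dropped, and phiX174 had 1.79% of counts in replicate 1 and 0.318% in replicate 2. Sequences and 31-base words were read from the GENCODE M21 transcripts. Alternatives are given below.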

Additional observations from a re-analysis of the deposited data

How the results depend on the processing

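Leaving out replicate 1 or replicate 2 leaves a single value without a test, and gave 24099.9 and 10410.3 TPM for Malat1. Malat1's mean was 59164 TPM once short RNAs and mitochondrial genes were left out of TPM, against 17255 TPM as deposited, and its share of counts was 10.8% without them in the denominator and 7.28% in the second table, against 9.16%. The speckle list's median was 103 TPM with the same genes left out, against 29.4 TPM. The median retained-intron share of the 5 coding genes was 37.4% in the second table, 10.8% by counts and 39.4% with processed transcripts added, against 31.4%. With total counts 0 members were called higher in replicate 1 by the exact test and 7 higher in replicate 2, a scaling that moved the median log2 ratio of all genes to -0.17. Relative to that median, Srrm2 (-0.063) and Srrm1 (-0.16) were not lower. With counts of the second table, 5 were called higher in replicate 1 and 2 higher in replicate 2, and the log2 ratios of Malat1 (0.14), Son (0.25) and Acin1 (0.13) turned round. Son was at 0.0073 with all genes of at least 1 count, and Srrm1 at -0.0499 with a mean count of 100 or more. The causes were not tested. Posterior mean TPM moved no member's mean beyond its spread, and a prior count of 2 changed no call, though the log2 ratio of Gm37376 was -9.96 with it, against -11.96. Of 33 transcript shares, the second table moved 17 beyond the spread between the libraries. No paired analysis was possible because there is only 1 group.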
